A study of Oryctolagus cuniculus with 18 samples.

Results

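The genes described here are 6 secreted signals of leukocyte recruitment, out of the 84 genes of interest of the rabbit wound healing PCR array: the chemokines CCL2, CCL4 and CXCL8, the colony-stimulating factors CSF2 and CSF3, and macrophage migration inhibitory factor, MIF. They were chosen by name, and all 6 were read in every rabbit. Whole tissue RNA came from the lower abdominal aorta of 18 male New Zealand White (NZW) rabbits, which were 11 weeks old when they were randomized. The control group held 9 healthy rabbits on normal chow. The atherosclerotic group held 9 rabbits with stable advanced atherosclerosis, produced by balloon denudation of the aorta and a cholesterol diet (0.30% for 8 weeks, then 0.15% for 12 weeks). Both were given to the same rabbits and the methods describe no sham surgery, so the effects of diet and of denudation cannot be told apart. The plaques of this model are of the stable kind.

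Chemokines are small secreted proteins that draw leukocytes out of the blood along a gradient. CCL2 (monocyte chemoattractant protein 1) and CCL4 (macrophage inflammatory protein 1 beta) belong to the C-C family, which attracts mainly monocytes and T cells, while CXCL8 (interleukin 8) belongs to the C-X-C family and attracts mainly neutrophils. CSF2 (GM-CSF) promotes granulocytes and macrophages, CSF3 (G-CSF) promotes neutrophil production in the marrow, and MIF is a broadly expressed cytokine that is often stored ready-made in cells. Monocytes that enter the wall of an artery and become foam cells are a hallmark of atherosclerotic plaque. In the RefSeq gene table of the rabbit assembly mOryCun1.1, CCL2 is the neighbour of CCL7, CXCL8 of RASSF6 and CSF2 of P4HA2, and CSF3 lies between MED24 and PSMD3.

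The 3 chemokines were higher in the atherosclerotic group by 8.57 to 12.2 times, CSF3 was lower, and CSF2 and MIF did not pass the test. In whole aorta, a change in the number of cells of a type and a change in RNA per cell cannot be told apart. Each gene had 1 well per rabbit, read as a threshold cycle (Ct, the number of PCR cycles a well needs before its signal is detected, so that an earlier Ct means more transcript). The deposited ratio sets that Ct against the level of 5 reference genes (ACTA2, ACTB, GAPDH, LDHA and LOC100346936) in the same rabbit, so that 1 unit of its log2 is a doubling. Below, expression is this ratio times 1000, that is, transcript per 1000 units of the reference level. In limma with Benjamini-Hochberg adjustment over the 84 genes, 3 of the 6 genes were called higher and 1 lower at an adjusted p under 0.05, beside 60.7% of all genes called in either direction, 38.1% higher and 22.6% lower. The share of these genes called is thus close to that of the whole array. In 0 of the 6 genes were the groups free of overlap, beside 22.6% of all genes. The median log2 difference was 1.76 over the 6 genes and 0.37 over the 84. CCL2, CCL4, CXCL8 and MIF had a Ct below 35 in all 18 rabbits. A well with a Ct of 35 or later, or none, stands at 35 in the deposited ratio and gives only an upper limit. This applied to CSF2 in 5 wells and CSF3 in 6 wells, and both genes still had a Ct below 35 in at least 5 rabbits of a group.

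**Figure D1:**
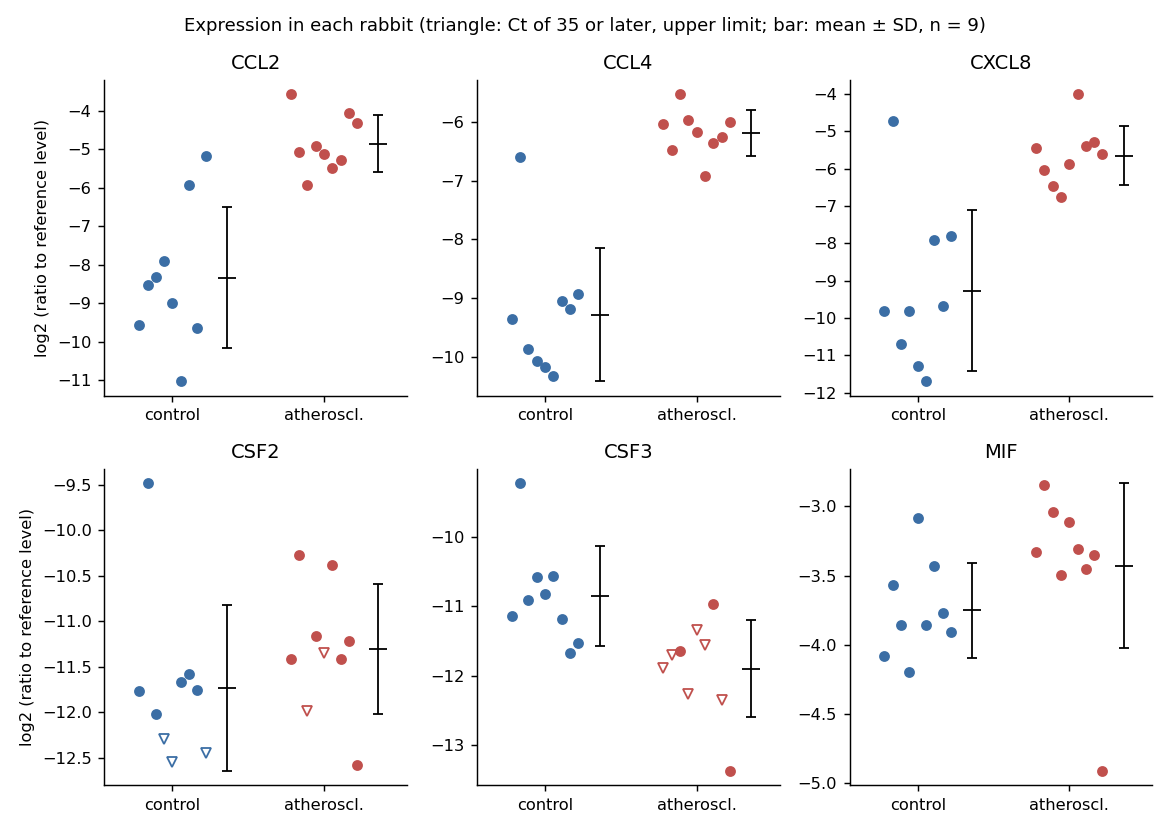
Log2 of the deposited ratio (vertical axis) of the 6 genes in each of 9 control and 9 atherosclerotic rabbits, with the mean ± SD beside each group and open triangles for upper limits. The chemokines lie mostly apart between the groups, with control rabbit 3 high for CCL4 and CXCL8 and control rabbits 15 and 21 high for CCL2, while CSF2 and MIF overlap.

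Rabbits 3 and 20 stood apart in their reference level, and several values below rest on them. This level came late, at 24.53 cycles, in control rabbit 3, where the remaining control rabbits lay between 22.00 and 22.82. It came early, at 19.79 cycles, in atherosclerotic rabbit 20, where the rest of that group lay between 22.65 and 23.65. The reference level enters every ratio of a rabbit. Leaving out both rabbits, a choice made once the values had been seen, gave log2 differences of 3.39 for CCL2, 3.41 for CCL4, 4.17 for CXCL8, 0.86 for CSF2, -0.66 for CSF3 and 0.53 for MIF, and then all 6 had an adjusted p under 0.05 in limma (the largest 0.014).

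CCL2, the main monocyte chemoattractant of the arterial wall, lay between 0.482 and 27.5 per 1000 (median 2.71) in control rabbits, and between 16.5 and 84.1 (median 29.5) in atherosclerotic rabbits. The low end was set by control rabbit 13 and the high end by atherosclerotic rabbit 2. Control rabbits 15 and 21 were high at 16.3 and 27.5, against 0.482 to 4.19 in the other 7, and only rabbit 21 fell inside the atherosclerotic range. On the log2 scale control rabbits averaged -8.34 ± 1.83 (SD, n = 9) and atherosclerotic rabbits -4.86 ± 0.74 (SD, n = 9). The log2 difference was 3.48 (standard error 0.61, adjusted p = 5e-05 from limma), or 11.1-fold with a 95% interval of 4.61 to 26.9. All 9 atherosclerotic rabbits lay above the control median, and 6 lay above every control rabbit.

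CCL4, released by activated macrophages and T cells, was the tightest of the 3 chemokines. Control rabbits ranged from 0.772 to 10.4 per 1000 with a median of 1.52, and atherosclerotic rabbits from 8.31 to 21.8 with a median of 13.9. The control value of 10.4 belonged to rabbit 3, and the other 8 control rabbits did not exceed 2.06. The overlap of the groups came from rabbit 3 alone, above which 8 of the 9 atherosclerotic rabbits lay. Its raw Ct of CCL4, 31.12, was within the 31.06 to 32.77 of the other control rabbits. The log2 difference was 3.10 (standard error 0.38, adjusted p = 7.9e-07 from limma), or 8.57-fold with a 95% interval of 4.91 to 15.0.

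CXCL8, the neutrophil chemoattractant, had the largest mean difference of the 6 genes and the widest spread among controls. Control rabbits had 0.303 to 37.8 per 1000 (median 1.11), and atherosclerotic rabbits had 9.33 to 62.5 (median 20.5). Control rabbit 3 again held the high value, and only atherosclerotic rabbit 12, at 62.5, lay above it. The other 8 control rabbits did not exceed 4.53 and lay below all 9 atherosclerotic rabbits. Unlike that of CCL4, the raw Ct of CXCL8 in rabbit 3, 29.26, was also the earliest of the control group, where the next came at 29.90. The log2 difference was 3.61 (standard error 0.71, adjusted p = 0.00016 from limma), or 12.2-fold with a 95% interval of 4.40 to 34.0, and it was 4.18 without control rabbit 3. By the size of the log2 difference, CXCL8, CCL2 and CCL4 ranked 8, 9 and 11 of the 84 genes.

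The size of these increases depended on the reference level, in which ACTA2, the smooth muscle actin, and the glycolytic enzymes LDHA and GAPDH themselves came at different cycles in the groups. LDHA came at 25.57 to 28.63 cycles in control rabbits and at 22.32 to 25.27 in atherosclerotic rabbits. ACTA2 came at 18.28 to 20.78 in control rabbits and at 21.07 to 24.56 in atherosclerotic rabbits other than rabbit 20, where it came at 16.25. GAPDH came at 22.25 to 24.86 in control rabbits and at 18.71 to 22.67 in atherosclerotic rabbits, with overlap, and was also earlier on the whole in the latter. With GAPDH alone as reference the folds were 5.16 for CCL2, 3.97 for CCL4 and 5.67 for CXCL8. With a reference level that omits LDHA they were 16.3, 12.6 and 17.9. A reference level shifts all 84 genes alike, by -1.11 with GAPDH alone, by -0.82 with ACTA2 left out and by 0.55 with LDHA left out on the log2 scale. The numbers of genes called higher and lower moved with it from 32 and 19 to 19 and 42, 22 and 34, and 47 and 10 in that order. All 3 chemokines kept an adjusted p under 0.05 in limma with each of the 8 other reference levels tried. They also differed in the raw Ct, before any reference gene. The mean Ct came earlier in the atherosclerotic group by 3.44 cycles for CCL2 (31.04 against 27.60), by 3.06 cycles for CCL4 (31.98 against 28.92) and by 3.57 cycles for CXCL8 (31.96 against 28.39). The adjusted p in exact two-sided permutation tests was 0.0039, 0.00023 and 0.00086 in that order. With CSF3, 4 of the 6 genes were called on the raw Ct, beside 47.6% of all genes.

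**Figure D2:**
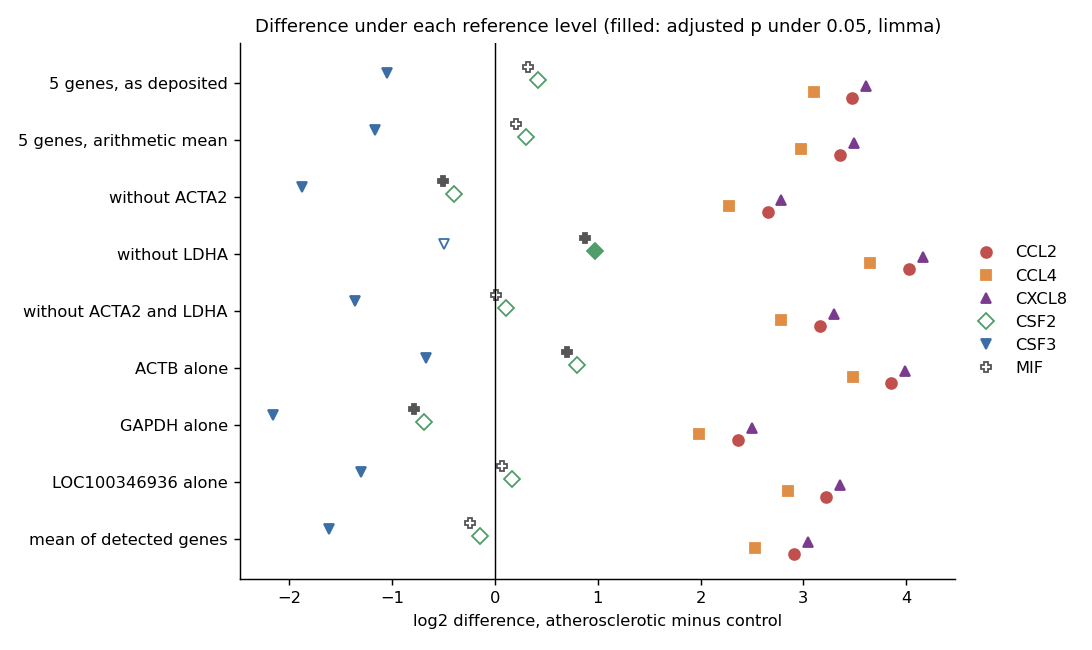
Log2 difference of each gene (horizontal axis, atherosclerotic minus control) under 9 reference levels (rows), with filled symbols for an adjusted p under 0.05 in limma. CCL2, CCL4 and CXCL8 stay at or above 1.99 and CSF3 stays below 0, while CSF2 and MIF lie on either side of 0 depending on the row.

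Whether monocyte or neutrophil signals moved further was compared by the ratio of 2 genes within the same rabbit, in which the reference level cancels. Every pair of the 84 genes was tested (3486 pairs, exact two-sided permutation test with Benjamini-Hochberg adjustment over all of them), and 66.1% were called. Of the 15 pairs among the 6 genes, 11 were called. Both gene levels and primer efficiencies enter such a ratio, so only its change between groups is read.

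The change in the balance between CCL2 and CXCL8 was smaller than the spread between rabbits. The log2 of CCL2 over CXCL8 lay between -3.80 and 2.60 (median 1.92) in control rabbits, and between -1.49 and 1.88 (median 0.96) in atherosclerotic rabbits. Rabbit 3 set the control minimum, and the groups overlapped almost wholly. The difference was -0.14 (exact permutation p = 0.87, adjusted p = 0.89), with a 95% interval of -1.58 to 1.31 from limma, so a 2-fold shift in either direction lies within the interval. The difference was -0.73 without control rabbit 3 and 0.15 without atherosclerotic rabbit 12. CCL4 over CXCL8 differed by -0.51 (95% interval -1.59 to 0.56 from limma, exact permutation adjusted p = 0.41) and CCL2 over CCL4 by 0.38 (95% interval -0.95 to 1.71, exact permutation adjusted p = 0.64).

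Against the other 3 genes, each of the chemokines rose within the same rabbit. Relative to MIF, CCL2 rose by 3.15, CCL4 by 2.78 and CXCL8 by 3.29 on the log2 scale (exact permutation adjusted p = 0.0019, 0.00049 and 0.0027). The log2 of CXCL8 over CSF3, the attractant of neutrophils over the factor for their production, lay between -1.12 and 4.51 (median 1.33) in control rabbits and between 5.17 and 7.75 (median 5.66) in atherosclerotic rabbits. No atherosclerotic rabbit overlapped the control range, although 6 of these ratios are lower limits because CSF3 was late. That ratio rose by 4.66 (adjusted p = 0.00016 in the exact permutation test, whose unadjusted 4.1e-05 is the lowest value that groups of 9 can give). CCL4 over CSF3 rose by 4.15, also without overlap, and CCL2 over CSF3 by 4.52 with 5 of 9 atherosclerotic rabbits above every control rabbit. Relative to CSF2, the increases were 3.05 for CCL2, 2.68 for CCL4 and 3.19 for CXCL8 (the largest exact permutation adjusted p of the 3 was 0.0048).

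**Figure D3:**
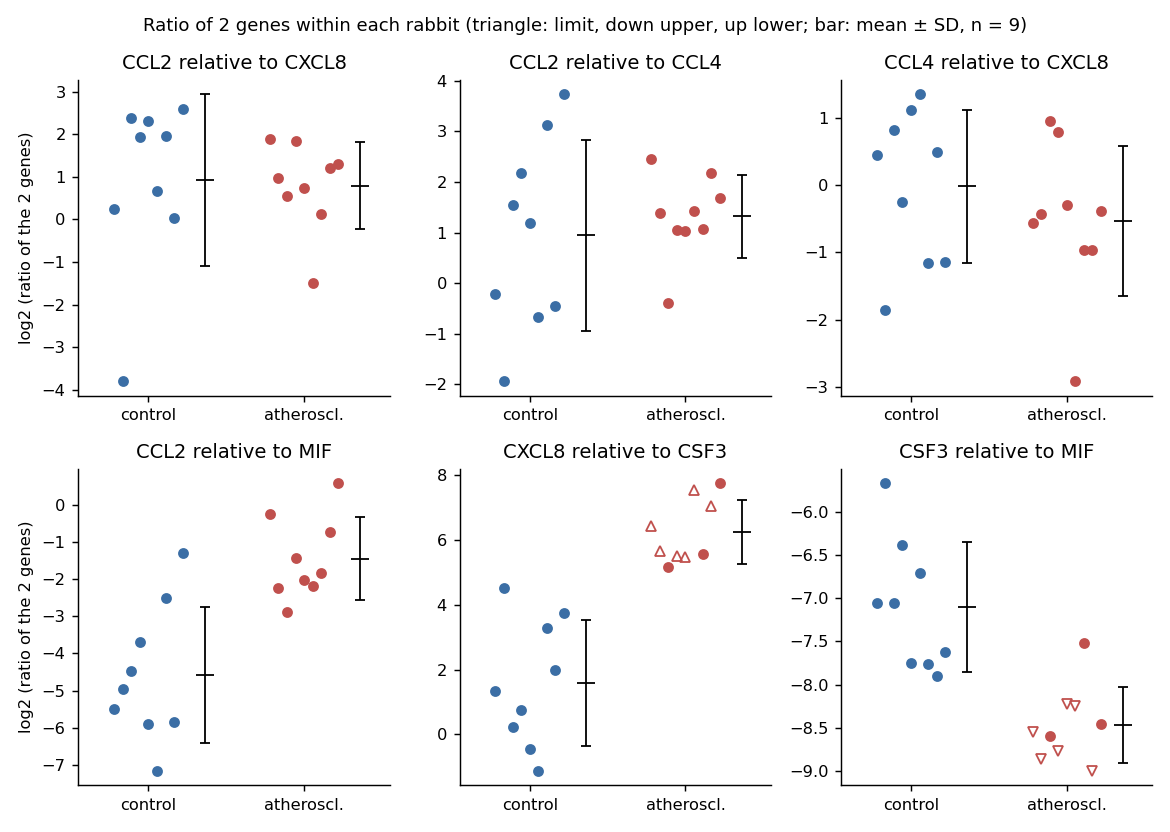
Log2 ratio of 2 genes within each rabbit (vertical axis) for 6 pairs, by group, with mean ± SD and open triangles where CSF3 was at its limit. The upper row, with the chemokines against each other, overlaps between the groups, while CXCL8 relative to CSF3 lies at 5.17 or above in the atherosclerotic group and at 4.51 or below in the control group.

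CSF3, the granulocyte factor, fell in the atherosclerotic group. It lay between 0.306 and 1.66 per 1000 (median 0.522) in control rabbits, and between 0.095 and 0.498 (median 0.299) in atherosclerotic rabbits. The value of 0.095 was that of rabbit 20, although its raw Ct of 33.16 was the earliest of its group. Of the control rabbits only rabbit 13, at 32.79, came earlier. The Ct was below 35 in 9 of 9 control rabbits and in 3 of 9 atherosclerotic rabbits (6, 14 and 20), and the other 6 atherosclerotic values are upper limits. All 9 atherosclerotic rabbits lay below the control median, and 5 lay below every control rabbit, rabbit 20 among them. The log2 difference was -1.05 (standard error 0.33, adjusted p = 0.0084 from limma). The 6 upper limits all lie in the lower group, so they can only make the decrease look smaller. The raw Ct came later by 1.09 cycles (33.55 against 34.64 with late wells set to 35, exact permutation adjusted p = 0.0076), and by 0.36 cycles without late wells (exact permutation adjusted p = 0.44).

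Whether CSF3 was called lower depended on the reference level and on the late wells. Its log2 difference was -0.50 with a reference level that omits LDHA (adjusted p = 0.2 from limma) and -1.87 with ACTA2 left out (adjusted p = 1.7e-05 from limma). With late wells treated as missing, leaving 3 atherosclerotic rabbits, it was -1.14 (adjusted p = 0.08 from limma). The number of rabbits with a Ct below 35, 9 against 3, gave p = 0.009 in Fisher's exact test and 0.13 after adjustment over the 84 genes. With any determined Ct counted it was 9 against 8, and with a limit of 33 cycles 1 against 0 (p = 1 in Fisher's exact test for both). With this test 0 of the 6 genes were called, 1 had an unadjusted p under 0.05, and 4.76% of all genes were called. Against MIF in the same rabbit CSF3 fell by 1.37 on the log2 scale (exact permutation adjusted p = 0.00058), with 8 of 9 atherosclerotic rabbits below every control rabbit, although 6 of the 9 ratios are upper limits. Without late wells that difference was -1.09 and was not called (exact permutation adjusted p = 0.075).

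CSF2, the granulocyte and macrophage factor, was close to the detection limit in both groups. Control rabbits had 0.167 to 1.40 per 1000 (median 0.286), with 6 of 9 wells before cycle 35, and atherosclerotic rabbits had 0.163 to 0.807 (median 0.384), with 7 of 9. Control rabbit 3 held the highest value and the groups overlapped widely. The log2 difference of 0.42 did not pass the test (standard error 0.37, 95% interval -0.36 to 1.20, adjusted p = 0.33 from limma). It was 0.70 without control rabbit 3 (adjusted p = 0.04 from limma), 0.97 with a reference level that omits LDHA (adjusted p = 0.031 from limma) and -0.40 with ACTA2 left out. The 2 colony-stimulating factors moved apart, with CSF2 over CSF3 higher by 1.47 on the log2 scale in the atherosclerotic group (exact permutation adjusted p = 0.0013), although 7 of 9 atherosclerotic rabbits had a limit in at least 1 of the 2 genes (rabbit 10 in both) and 3 control rabbits had one in CSF2. Without late wells that ratio differed by 0.77 (exact permutation adjusted p = 0.23).

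MIF did not pass the test on the deposited ratio. Its expression was 54.5 to 118 per 1000 (median 69.2) in control rabbits and 33.3 to 139 (median 99.3) in atherosclerotic rabbits. The lowest of all 18 ratios was that of atherosclerotic rabbit 20, although its raw Ct of MIF, 24.70, was the earliest of all 18. Its reference level came early, at 19.79 cycles. The other 8 atherosclerotic rabbits lay at 88.7 or above. The log2 difference was 0.32 (standard error 0.24, 95% interval -0.19 to 0.83, adjusted p = 0.26 from limma). Without atherosclerotic rabbit 20 it was 0.51 (adjusted p = 0.014 from limma). The direction turned with the reference genes, from 0.87 with LDHA left out (adjusted p = 0.0074) to -0.50 with ACTA2 left out (adjusted p = 0.034) and -0.79 with GAPDH alone (adjusted p = 0.026, all from limma). The raw Ct of MIF differed by -0.28 cycles (26.45 against 26.16, exact permutation adjusted p = 0.54), and CSF2 over MIF by 0.10 on the log2 scale (exact permutation adjusted p = 0.83).

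Within a group, the chemokines did not all vary together. In the control group CCL4 and CXCL8 followed each other across the 9 rabbits (r = 0.95, exact permutation p = 9.9e-05, adjusted p = 0.011; rho = 0.98, exact permutation p = 5e-05, adjusted p = 0.0081), with rabbit 13 lowest and rabbit 3 highest for both. Without rabbits 3 and 13, the farthest from the median of CCL4, r was 0.85, and on the raw Ct, free of the shared reference level, it was 0.92. CCL2 and CXCL8 in the control group gave r = 0.50 (exact permutation p = 0.17, adjusted p = 0.58) and rho = 0.50 (exact permutation p = 0.18, adjusted p = 0.59), and r = 0.39 without rabbits 15 and 21. These p-values were adjusted over 325 relations between a member and another gene, in which a pair of members counts from both sides, and all values of a rabbit share its reference level. In the control group 3 of the 325 had an adjusted p under 0.05 in the exact permutation test of r, and 38 had an unadjusted p under 0.05. The 3 are CCL4 with CXCL8, counted from both sides, and CCL2 with the integrin ITGB5, named after its values were seen (r = -0.98, exact permutation p = 2.8e-05, adjusted p = 0.009; rho = -0.97, exact permutation p = 0.00017, adjusted p = 0.018). For CCL2 and ITGB5 r was -0.92 without rabbits 15 and 21 and -0.22 on the raw Ct.

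In the atherosclerotic group CCL4 and CXCL8 gave r = -0.77 (exact permutation p = 0.023, adjusted p = 0.37 over 288 relations) and rho = -0.67 (exact permutation p = 0.059, adjusted p = 0.46). Rabbit 12 had the lowest CCL4 and the highest CXCL8, and rabbits 6 and 8 had the lowest CXCL8. Without rabbits 12 and 6, the farthest from the median of CCL4, r was -0.26, and without rabbits 12 and 8, the farthest for CXCL8, it was -0.53. The relation weakened without these rabbits, and with a reference level that omits ACTA2 it was -0.14. On the raw Ct, where rabbit 20 came earliest for both genes, r was 0.65. The difference in this relation between the groups was not tested. In this group 0 of the 288 relations passed an adjusted p under 0.05 in the exact permutation test of r, and 34 had an unadjusted p under 0.05.

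**Figure D4:**
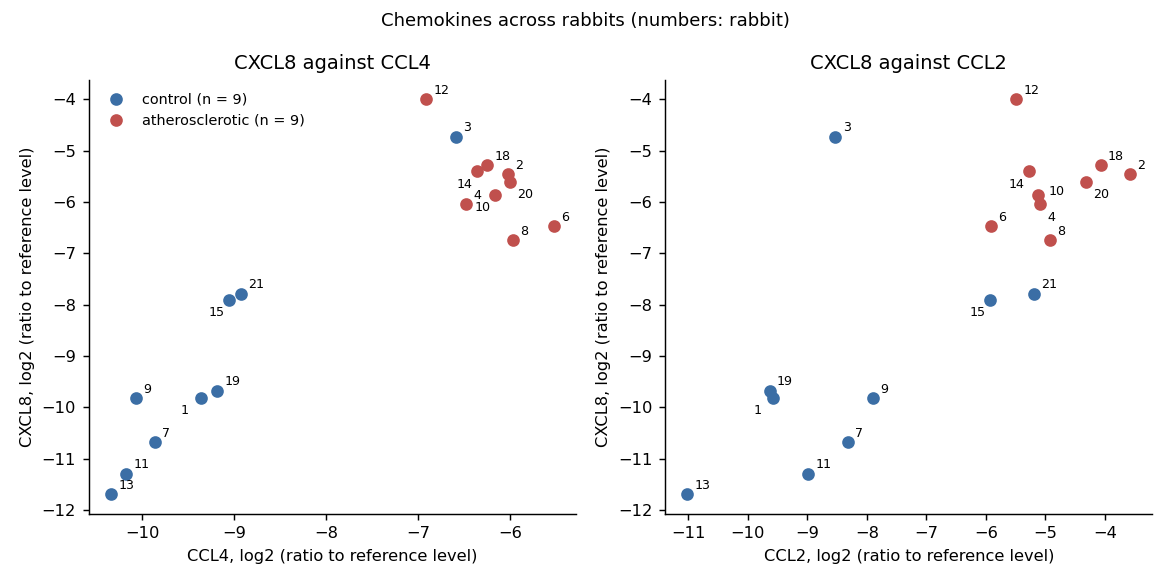
CXCL8 against CCL4 (left) and against CCL2 (right), both axes as log2 of the deposited ratio, 1 point per rabbit with its number. Control rabbits run along a line for CCL4 (r = 0.95), with rabbit 3 among the atherosclerotic rabbits, and atherosclerotic rabbit 12 has the highest CXCL8 and the lowest CCL4 of its group.

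Among the genes whose pattern over the 9 atherosclerotic rabbits was most like that of a member, by Pearson's r among 73 genes with a Ct below 35 in all of them, were CTGF (r = 0.67) and PDGFA (0.65) for CCL2, CTNNB1 (0.59) and PLAU (0.57) for CCL4, ITGA4 (0.73) and WNT2 (0.72) for CXCL8, and PDGFB (0.94) for MIF. Their rho was 0.75, 0.70, 0.77, 0.43, 0.37, 0.73 and 0.53 in that order. The exact permutation p of r ranged from 0.011 for PDGFB to 0.11 for PLAU and that of rho from 0.021 for CTNNB1 to 0.34 for ITGA4, and the lowest adjusted p of these genes was 0.37 for r and 0.46 for rho. Without the 2 rabbits farthest from the member's median, r was 0.63 and 0.53 for CCL2, 0.85 and -0.035 for CCL4, -0.26 and 0.40 for CXCL8, and 0.14 for MIF. The likeness of PLAU to CCL4, of ITGA4 to CXCL8 and of PDGFB to MIF thus rested on those rabbits, rabbit 20 among them for MIF.

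Signals that act on the expression of these chemokines were read on the same array, most of them inducers, while IL10 is known to restrain it. Of the 10 genes listed, 4 rose (IL10 among them) and 6 did not pass the test, beside 38.1% of all genes called higher, and their median log2 difference was 1.13. TLR4, the receptor for bacterial endotoxin and for some altered lipoproteins, rose by 5.30 (adjusted p = 1.5e-09 from limma). IL10, which dampens macrophage activation, rose by 4.16 (adjusted p = 2.4e-09), TNF by 2.34 (adjusted p = 1.5e-05) with all 9 control wells at the limit, and CD40LG, a ligand on activated T cells, by 1.77 (adjusted p = 0.0063, all from limma). The interleukin 1 genes differed by 0.32 (IL1A, 16 of 18 wells at the limit) and 1.24 (IL1B), IL6 by 0.91, PTGS2 by 1.03, IFNG by -0.10 and STAT3 by -0.01, with adjusted p-values from 0.13 to 0.96 in limma.

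Of 6 macrophage and matrix products, 5 rose and the urokinase receptor PLAUR, with a log2 difference of 2.32, did not pass the test (adjusted p = 0.053 from limma), beside 38.1% of all genes called higher. MMP1 and MMP9, proteases that cut matrix, rose by 4.95 and 4.19, the growth factor PDGFB by 4.63, the protease activator PLAU by 3.37 and cathepsin K (CTSK) by 2.75, each at an adjusted p of 1.3e-06 or less in limma. The median over this list was 3.78. For MMP1 all 9 control wells were at the limit.

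**Figure D5:**
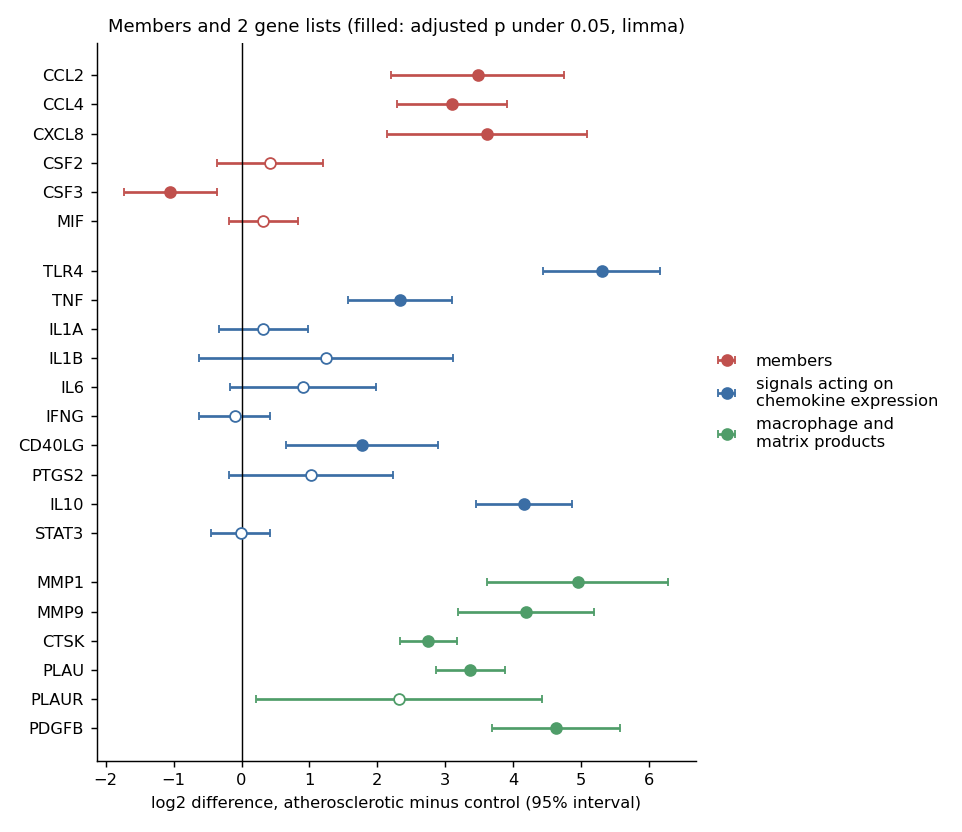
Log2 difference (atherosclerotic minus control) with its 95% interval from limma for the 6 genes, 10 signals that act on chemokine expression and 6 macrophage and matrix products, filled where the adjusted p was under 0.05. CCL2, CCL4 and CXCL8 lie between 3.10 and 3.61, TLR4 and IL10 lie higher at 5.30 and 4.16, and CSF2, MIF, IL1A, IL1B, IL6, IFNG, PTGS2, STAT3 and PLAUR are not called.

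Genes listed for smooth muscle were lower and those listed for macrophages higher in the atherosclerotic group, while T cell genes went both ways. Of the genes listed for smooth muscle (ACTA2, TAGLN and ACTC1) the 2 among the 84 were lower, beside 22.6% of all genes called lower. These were TAGLN, listed as LOC100009332, and ACTC1. ACTA2 is 1 of the 5 reference genes. ACTC1 was near the limit, with a control median of 0.583 per 1000, so the decrease is shown mainly by TAGLN. The summed level of the 3 was 25205 to 36942 per 1000 in the control group and 1310 to 13591 in the atherosclerotic group. In the latter, 7 of 27 wells were at the limit, each of them a well of ACTC1. The highest atherosclerotic sum was that of rabbit 20, and without it the range ended at 8181. Of 4 genes that macrophages can express (CTSK, MMP9, TNF and IL10) all 4 were higher, beside 38.1% of all genes. The set leaves out MMP1, PLAU, PDGFB and TLR4, which rose, and PLAUR, IL1A, IL1B, IL6 and PTGS2, which did not pass the test. The sums of the 4 were 455 to 991 in control and 3164 to 7005 in atherosclerotic rabbits. These sums are almost wholly CTSK, which alone gave 454 to 991 and 3138 to 6987. The paper saw no macrophages in control arteries by antibody staining, so the control sums are not read as macrophage content. Of the control wells 17 of 36 were at the limit, among them all 9 of TNF. Of 4 T cell genes (IL2, IL4, IFNG and CD40LG) CD40LG was higher and IL2 lower (log2 difference -2.05, adjusted p = 2.1e-05 from limma), and the sums were 80.0 to 148 and 65.0 to 274. IFNG alone gave 72.5 to 139.5 and 62.3 to 271.9 of these sums, so the changes of CD40LG and IL2 do not show in them. Rabbit 20 again had the highest sum, and the other atherosclerotic rabbits did not exceed 133.8. The part of these cell types in the chemokine differences was not tested.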

How the data were processed

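RNA from the lower abdominal aorta was extracted by the authors with TRIzol, reverse-transcribed and read on rabbit wound healing arrays in the Mx3000P system, with 1 well per gene and rabbit. The authors deposited raw Ct values and, from GeneGlobe, a ratio of each gene to 5 reference genes (2 to the minus deltaCt, late wells set to 35 cycles). Another deposited table holds the authors' fold changes between the groups and was not used.

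Groups and rabbit numbers came from the sample titles, which share no numbers between groups and name no batch. The log2 ratio was fitted with limma 3.58.1 (R 4.3.3), and exact tests, Fisher's tests and Benjamini-Hochberg adjustment used Python 3.11.15 with numpy 2.4.6, scipy 1.17.1 and pandas 2.3.3. Both were tested on simulated data. Figures used matplotlib 3.10.9. Precision is limited by 1 well per gene, so the spread between rabbits includes PCR error, and p-values measure that spread.

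The 6 genes and the gene lists were chosen with earlier results of these data known. The genes named are these 6, the 2 genes most like each by Pearson's r (1 of them is not reported here), and all genes of 2 lists. Of the 89 assays, 62 matched the RefSeq table by accession and 26 by symbol only (CSF3 among them). Alternatives were other reference levels, treatments of late wells, tests and scales, a detection filter of 5 rabbits, and leaving out each rabbit.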

Additional observations from a re-analysis of the deposited data

Results flagged for a closer look

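Of 42 groups of 9 values examined (each gene, and each ratio of 2 of the 6 genes, in each group), 9 held a rabbit far from the others. Its gap to the next rabbit was at least 0.499 of the range. A rate of 1 in 20 would give about 2.1. The groups share genes and reference levels, so this number cannot show an excess over chance. Values are on the log2 scale unless a Ct is named. Control rabbit 3 was high for CCL4 (-6.59 against -10.34 to -8.93), CSF2 (-9.49 against -12.55 to -11.58) and CSF3 (-9.24 against -11.67 to -10.57). It also stood apart in 2 ratios that do not contain the reference level, with CCL2 over CXCL8 at -3.80 (others 0.04 to 2.60) and CSF2 over MIF at -5.92 (others -9.47 to -7.69). Atherosclerotic rabbit 20 was low for MIF (-4.91 against -3.49 to -2.85), and its CCL4 over MIF was high at -1.09 (others -3.63 to -2.47). Atherosclerotic rabbit 6 had the lowest CCL2 over CCL4, -0.40 (others 1.04 to 2.45), and rabbit 12 the lowest CCL4 over CXCL8, -2.91 (others -0.97 to 0.95). By raw Ct, control rabbit 3 lay within the other controls for CCL4 (31.12), CSF2 (34.02) and CSF3 (33.77). Atherosclerotic rabbit 20 had the earliest raw Ct of MIF, 24.70. The reference level, which enters each single-gene ratio, came late in rabbit 3 and early in rabbit 20. No explanation was tested for the values that stood apart.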

How the results depend on the processing

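CCL2, CCL4 and CXCL8 were called higher in all 35 alternatives each. CSF2, 0.42 as reported, was -0.40 without ACTA2 in the reference level, 0.97 without LDHA, -0.69 with GAPDH alone, -0.14 with the mean of detected genes, 0.72 with array weights, 0.86 without rabbits 3 and 20, and 0.29 to 0.70 when each rabbit was left out. MIF, 0.32 as reported, was -0.50, 0.87, -0.79, -0.25, 0.50 and 0.53 in the same order, 0.70 with ACTB alone, and 0.25 to 0.51 when each rabbit was left out. CSF3 was -0.50 without LDHA and -1.14 without late wells on the log2 scale. In the methods' t-test, run on the ratio itself, its group means differed by -0.73 of the mean over all rabbits (adjusted p = 0.058). Of the 6 genes, 3 were called higher and 1 lower. The number higher became 5 without LDHA, with array weights and without rabbits 3 and 20, and 3 to 4 when each rabbit was left out. The number lower became 2 without ACTA2 and with GAPDH alone, and 0 without LDHA, without late wells and in the adjusted methods' t-test. Unadjusted, that test called 3 higher and 1 lower. Among ratios of 2 genes, without late wells CSF2 over CSF3 was 0.77, CSF2 over MIF -0.058 and CSF3 over MIF -1.09 (adjusted p = 0.075), and without rabbits 3 and 20 CCL2 over CCL4 was -0.028. Leaving out each rabbit gave -0.73 to 0.15 for CCL2 over CXCL8, 0.017 to 0.73 for CCL2 over CCL4, -0.086 to 0.36 for CSF2 over MIF, and -7 to -5 for the difference in rabbits with a Ct of CSF3 below 35, which passed the test (adjusted p = 0.038) without atherosclerotic rabbit 6, 14 or 20. That difference was -1 (adjusted p = 1 in Fisher's exact test) with a limit of 33 cycles and with any determined Ct. The cause of these changes was not tested. Across the 84 genes, 32 were higher and 19 lower, and the calls ranged from 19 to 47 higher and from 10 to 42 lower over the alternatives, with 40 and 10 for ACTB alone and 27 and 29 for the mean of detected genes. No paired analysis was possible because the groups share no rabbit numbers.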
